A study of Mus musculus with 24 samples.

Results

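The experiment described here asks what BDNF changes in mouse cortical neurons within 2 h when BET proteins are inhibited at the same time. It rests on 6 of the series' 24 arrays: 3 from cultures given BDNF together with IBET858, and 3 from cultures given IBET858 without BDNF. Neurons were taken from the cortex at embryonic day 18 and grown for 1 week. BDNF was used at 50 ng per ml and IBET858, a BET inhibitor, at 1 µM, so both groups of the comparison carried the inhibitor. The other arrays used are 3 with BDNF alone and 3 with the solvent DMSO at 2 h, and 3 with each of the inhibitor treatments at 12 h. The mouse strain is not given in the sources used here, and the labels number the replicates without saying whether these were separate cultures. The p-values therefore measure the spread between these samples, which may be technical.

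BDNF is a secreted growth factor that binds the receptor tyrosine kinase TrkB and, through the ERK kinases and calcium, activates the transcription factors CREB and SRF. These turn on immediate-early genes, many of them transcription factors themselves, and later genes for synaptic and secreted proteins. BET proteins read acetylated histones at promoters and enhancers and help to bring the elongation factor P-TEFb to RNA polymerase. Inhibitors such as IBET858 occupy their acetyl-lysine pocket. In neurons, genes induced by activity and by BDNF are among those studied for their need of BET proteins.

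The values are log2 array intensities that the authors centred for each probe set, so a value of 0 is that probe set's median over the 24 arrays. They show differences between arrays and carry no level, so the neuronal label could not be checked against how strongly markers were expressed. On the 6 arrays of the comparison, the standard deviation of genes around their group mean ran from 0.0775 to 0.0989 log2 units. Among the other arrays, replicate 1 of DMSO at 2 h stood apart at 0.178 and replicate 3 of IBET858 at 12 h at 0.157. Changes below are log2 differences ± the standard error of the limma model, with n = 3 arrays per group, and called genes are those with an adjusted p under 0.05.

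With IBET858 present, BDNF lowered more genes than it raised, and a small part of the rises was strong. Of 18194 genes tested, 1172 were higher (6.44%) and 2678 lower (14.7%). The typical called change was mild in both directions, with medians of 0.39 and -0.33 on the log2 scale. Over 1.5-fold the counts were close, at 322 higher and 307 lower. Over 2-fold, the balance turned: 148 genes rose and 28 fell. The largest rise was 4.92 and the largest fall -1.45 on the log2 scale, against a median of -0.004 over all genes. These are bulk cultures, in which fewer cells of a type and less RNA per cell cannot be told apart.

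The 15 genes that rose furthest included immediate-early genes such as Arc, Egr2 and Btg2, and the plasminogen activation genes Serpinb2 and Plat. Others, such as Pecam1, Rcc1 and Tmem54, were not called with BDNF alone. Serpinb2, an inhibitor of plasminogen activators, was at -1.67, -1.57 and -1.55 on the IBET858 arrays and at 3.57, 2.93 and 3.48 with BDNF added. Its rise of 4.92 ± 0.174, or 30.3-fold, was the largest of all genes (adjusted p = 8.34e-15). Arc, whose product drives removal of AMPA receptors from synapses, was at -1.29, -1.12 and -1.21 without and at 3.13, 3.03 and 3.24 with BDNF. It rose 20.3-fold, and no array of one group came near the other (4.34 ± 0.136, adjusted p = 1.2e-15). The zinc finger transcription factor Egr2 rose by 4.26 ± 0.13, with both of its probe sets close together at 4.14 and 4.37.

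Caprin2, an RNA-binding protein gene, was at 0.14, -0.02 and 0.09 under IBET858 and at 3.53, 3.51 and 3.76 with both (3.53 ± 0.0838, 11.6-fold). Pecam1, the adhesion molecule CD31 of endothelial and some blood cells, was at 0.16, 0.22 and -0.01, and at 3.48, 3.61 and 3.40 with BDNF. That is a 10.3-fold rise, at 3.37 ± 0.12. The antiproliferative gene Btg2 followed at 3.32 ± 0.14, and Plat, the tissue plasminogen activator that can process proBDNF by way of plasmin, at 3.22 ± 0.0821. The remaining large rises were those of Rcc1, the exchange factor of the GTPase Ran (2.90 ± 0.0715), the neurofilament gene Nefm (2.88 ± 0.103), Tmem54 (2.83 ± 0.153) and the imprinted gene Peg10 (2.59 ± 0.282). They were joined by the neuronal pentraxin gene Nptx2, which clusters AMPA receptors (2.51 ± 0.0863), Baiap2, a cytoskeletal scaffold of dendritic spines (2.51 ± 0.0528), the kinase gene Pim1 (2.48 ± 0.0846) and Tmem88 (2.48 ± 0.0973). In each of these 15 genes the 3 double-treated arrays lay above the 3 IBET858 arrays, as the rule that chose them required.

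**Figure D1:**
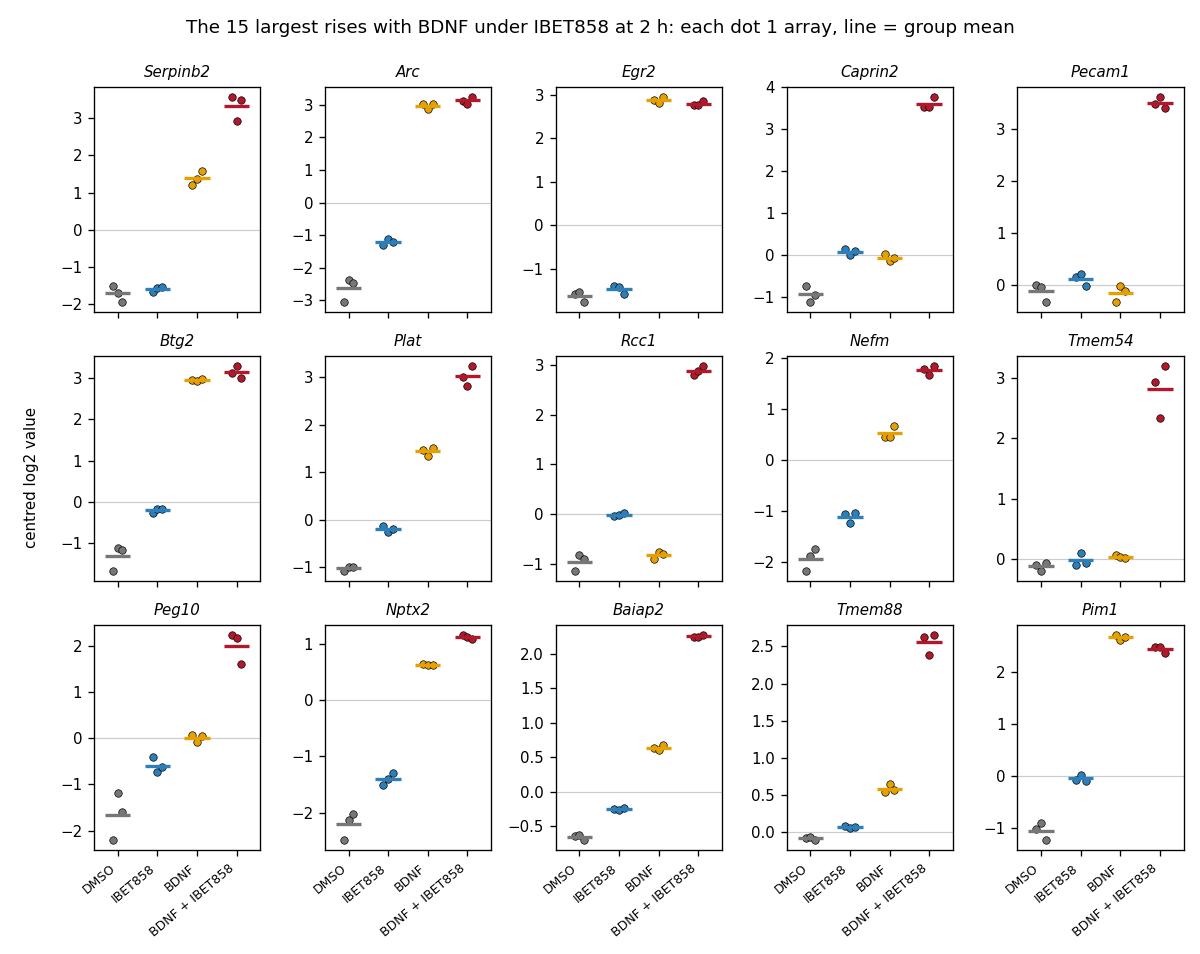
Centred log2 value of the 15 genes with the largest rises on each of the 12 arrays at 2 h, with dots for arrays and lines for the means of the DMSO, IBET858, BDNF and BDNF + IBET858 groups. In Pecam1, Rcc1, Caprin2 and Tmem54 only the double-treated arrays are far above the rest, whereas in Arc, Egr2 and Btg2 the arrays with BDNF alone are high as well.

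Promoters were taken from the genes with the largest rises that had a listed window. Those of 4 genes are shown, which differ in what BDNF did without the inhibitor. Serpinb2 and Btg2 also rose strongly with BDNF alone (3.09 and 4.25), while Caprin2 rose by 0.87 and Rcc1 was at 0.14 (adjusted p = 0.17). Shown are the 250 bases upstream of each RefSeq start site on GRCm38.p6, 5′ to 3′ along the gene, with capitals for matches of the motifs searched. Serpinb2 is at chr1:107511173-107511422 on the plus strand, Btg2 at chr1:134079156-134079405, Caprin2 at chr6:148896238-148896487 and Rcc1 at chr4:132345751-132346000, the last 3 on the minus strand.
Serpinb2: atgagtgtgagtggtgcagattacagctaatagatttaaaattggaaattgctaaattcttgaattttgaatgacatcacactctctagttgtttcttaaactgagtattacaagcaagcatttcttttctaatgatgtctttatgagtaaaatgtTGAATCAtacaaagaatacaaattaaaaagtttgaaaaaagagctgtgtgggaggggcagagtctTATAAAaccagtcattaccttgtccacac
Btg2: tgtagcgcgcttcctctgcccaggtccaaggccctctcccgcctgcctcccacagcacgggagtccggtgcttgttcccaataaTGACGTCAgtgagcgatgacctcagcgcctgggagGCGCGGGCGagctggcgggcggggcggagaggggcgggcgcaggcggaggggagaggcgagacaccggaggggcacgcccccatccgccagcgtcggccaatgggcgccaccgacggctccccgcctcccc
Caprin2: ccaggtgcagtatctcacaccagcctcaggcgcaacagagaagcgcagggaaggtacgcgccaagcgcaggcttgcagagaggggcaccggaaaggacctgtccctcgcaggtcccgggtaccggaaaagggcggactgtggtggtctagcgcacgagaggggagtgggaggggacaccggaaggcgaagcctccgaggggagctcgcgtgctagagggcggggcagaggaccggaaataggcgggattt
Rcc1: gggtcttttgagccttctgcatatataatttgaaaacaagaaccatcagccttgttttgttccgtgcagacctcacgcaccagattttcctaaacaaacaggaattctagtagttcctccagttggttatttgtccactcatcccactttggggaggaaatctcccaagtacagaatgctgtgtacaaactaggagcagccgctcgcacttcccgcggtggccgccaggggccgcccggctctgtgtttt
The Serpinb2 window, the first of 2 listed, held an AP-1 motif from -94 to -88 and a TATA box from -29 to -24, counted from the start site. The Btg2 window held a full CRE, the CREB motif, from -166 to -159 and an EGR motif from -131 to -123. The Caprin2 and Rcc1 windows held no match. Egr2, whose window is not shown, also rose with BDNF alone, with probe sets at 4.43 and 4.57. Its window, the first of 5 listed, likewise held none of the motifs put in capitals, which leave out the E-box counted below. A missing match says only that these letters are not in these stretches.

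Across genes, windows from 250 bases before to 50 after the start were listed for 109 of the 148 genes that rose over 2-fold, and for 14453 genes in all. The TATA box TATAAA, searched on the gene strand, was in 18.3% of the 109 windows against 6.5% of all, and the EGR motif GCGNGGGCG in 15.6% against 8.9%. The shorter CRE motif TGACG, which also lies within the full CRE, was in 37.6% against 27.2%, and the full CRE TGACGTCA in 1.83% against 2.68%. The AP-1 motif TGANTCA was in 10.1% against 6.33%, the E-box CACGTG in 12.8% against 9.02%, the CArG box of SRF in 2.75% against 1.36% and the kappaB motif in 3.67% against 4.97%. All but the TATA box were searched on both strands. These shares are descriptions and were not tested.

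Immediate-early transcription factors were the group that rose most uniformly. The shares over all genes, 6.44% higher and 14.7% lower, are the background for this and the following list counts. Of 6 EGR factors and their NAB corepressors, 5 rose and 0 fell, with a list median of 1.32 against -0.004 over all genes. Egr4 rose by 2.37 ± 0.0912, Egr1 by 1.39 ± 0.0851 and Egr3 by 1.25 ± 0.0529. Egr1 was at -0.40, -0.33 and -0.35 under IBET858 and at 1.07, 0.98 and 1.03 with both, so its rise was far larger than the spread of the arrays. Nab2, which represses EGR factors and is itself an EGR target, was the member not called (0.38 ± 0.139, adjusted p = 0.0599, 95% interval 0.09 to 0.66).

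Of 11 AP-1 factors, the leucine zipper proteins that pair as FOS and JUN, 10 rose and 0 fell (median 0.85). Fosb rose by 2.44 ± 0.131, Maff by 1.98 ± 0.189, Junb by 1.93 ± 0.0835 and Atf3 by 1.65 ± 0.148. Fos itself rose less, by 0.73 ± 0.0732, from 0.36, 0.38 and 0.40 to 1.10, 1.14 and 1.10. All 4 of the NR4A nuclear receptors and Npas4 were called higher, with Nr4a1 at 1.58 ± 0.208, Nr4a2 at 1.10 ± 0.0551 and the neuron-specific factor Npas4 at 1.06 ± 0.206. Of the 6 probe sets of Nr4a2, 4 were over 1.5-fold higher and the others were at 0.04 and 0.07. The call of Nr4a3 (0.55 ± 0.148) was lost without replicate 1 of the double-treated group (0.46, adjusted p = 0.0559) and with the median of its 3 probe sets (0.40, adjusted p = 0.0809), of which 1 was at 1.01 and the others at 0.32.

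Kruppel-like factors were mixed, with 6 of 13 higher and 2 lower: Klf4 rose by 1.80 ± 0.11 and Klf2 by 1.77 ± 0.0796, and Klf11 fell by 0.88. Among 32 other inducible regulators of transcription, 17 rose and 1 fell. They included Ier2 at 1.86 ± 0.0886, the ADP-ribosyltransferase gene Tiparp at 1.69 ± 0.129, the survival gene Mcl1 at 1.33 ± 0.0608 and the dominant-negative helix-loop-helix genes Id4 (1.22 ± 0.0943) and Id2 (1.12 ± 0.0879). Myc, often used to read out BET inhibition in dividing cells, rose by 0.80 ± 0.108 here, from -0.68, -0.60 and -0.75 to 0.14, 0.14 and 0.10.

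Secreted and synaptic effectors rose in part. Of 39 activity effectors, 19 rose and 0 fell (median 0.28). Beside Arc and Nptx2, the pentraxin Nptx1 rose by 1.82 ± 0.0935, the protease Adamts1 by 1.49 ± 0.16 and the secretory granule gene Vgf by 1.33 ± 0.259. Homer1, a postsynaptic scaffold with a short inducible form, averaged 1.78 ± 0.0571 over 6 probe sets that ran from 0.62 to 4.26. The probe sets of this gene thus responded unequally, and all 6 were over 1.5-fold higher. Of 22 neuropeptide and granule genes, 9 rose and 0 fell, with neurotensin (Nts) at 1.23 ± 0.249, galanin (Gal) at 1.00 ± 0.166 and Penk, the precursor of enkephalins, at 0.87 ± 0.0846.

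The Bdnf gene itself was not called. It was at -0.62, -0.87 and -0.53 on the IBET858 arrays and at -0.46, -0.48 and -0.49 on the double-treated arrays. The difference of 0.19 ± 0.262 did not pass (adjusted p = 0.677, 95% interval -0.35 to 0.74). With BDNF alone its own gene was higher by 1.18 ± 0.262, and the difference between these effects was -0.99 ± 0.371 and not called (adjusted p = 0.117). Replicate 1 of DMSO was far below the others (-1.36 against 0.14 and 0.34), and without it the difference was -0.46 (adjusted p = 0.141). Ntrk2, the TrkB gene, was at 0.23 ± 0.0551, but 1 of its 8 probe sets carried this rise at 1.83, and the median over probe sets gave 0.03 (adjusted p = 0.752). Of the 22 neurotrophins, receptors and processing genes, 2 rose and 2 fell (9.09% each, against 6.44% and 14.7% of all genes).

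Regulators of kinase signalling split by family. Of 12 dual-specificity phosphatases, which switch off MAP kinases, 5 rose and 1 fell, with Dusp14 at 2.08 ± 0.088, Dusp5 at 1.77 ± 0.157 and the ERK phosphatase Dusp6 at 1.46 ± 0.0819. Of 18 inducible kinases and small GTPases, 12 rose and 2 fell (median 0.68). The pseudokinase Trib1 was at 2.43 ± 0.111, the calcium channel regulator Gem at 2.09 ± 0.22 and its relative Rrad at 1.62 ± 0.106. The sprouty, SPRED and SOCS feedback inhibitors divided, with 5 of 19 higher and 6 lower (median -0.03). There, Errfi1, an inhibitor of EGF receptors, rose by 1.47 ± 0.0994 and Spry1 by 0.79 ± 0.0788, while the cytokine signalling inhibitor Cish fell by 0.53.

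Growth arrest and growth factor genes rose too. Of 7 GADD45, BTG and TOB genes, 5 rose and 1 fell (median 1.31), among them the stress sensors Gadd45g at 2.31 ± 0.196 and Gadd45b at 2.22 ± 0.087. The p53 target Cdkn1a, an inhibitor of cyclin-dependent kinases, rose by 1.90 ± 0.0692, one of 4 of the 14 p53 targets that rose (28.6%), with Btg2, Plk3 and Pmaip1. Another 2 fell, and the list median was -0.01. Of 21 inducible growth factor and cytokine genes, 12 rose and 1 fell, led by the matricellular protein Ccn1 (2.44 ± 0.0619) and the TWEAK receptor Tnfrsf12a (2.00 ± 0.0585). Of 16 NF-kappaB genes and inhibitors 2 rose (12.5%) and 1 fell (6.25%), against 6.44% and 14.7% of all genes. The 2 were Nfkbiz at 0.52 ± 0.123 and the subunit Rel at 0.51 ± 0.113.

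Chaperone and stress genes formed another rising group. Of 17 heat shock proteins and cochaperones, 10 rose and 0 fell (median 0.38). Dnajb1, a cochaperone of HSP70, was at 0.32, 0.35 and 0.33 under IBET858 and at 2.66, 2.72 and 2.70 with both (2.37 ± 0.0562). Hspb8 rose by 1.52 ± 0.119, Hspa1a by 1.31 ± 0.0917 and Hspa1b by 1.28 ± 0.12. The last 2 are near-identical copies, whose probe sets can read both. Of 27 ATF4 and endoplasmic reticulum stress genes, 12 rose and 1 fell (median 0.16), with Ddit3 at 1.85 ± 0.111.

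Genes that mark the inhibitor itself moved little or in both directions. Hexim1, the P-TEFb inhibitor that BET inhibitors induce, was at 1.44, 1.45 and 1.32 under IBET858 and at 1.32, 1.37 and 1.30 with both. Its difference was -0.08 (adjusted p = 0.663, 95% interval -0.28 to 0.13). All 6 of these arrays lay above the BDNF and DMSO arrays, which ran from -1.58 to -0.88. Of 20 BET and P-TEFb genes, 2 rose and 5 fell. The BET gene Brd2 rose by 0.78 ± 0.0572 and the elongation factor Ell2 by 0.51 ± 0.0701, while Cdk9, the kinase of P-TEFb, fell by 0.45, and Brd3 was at -0.05 (adjusted p = 0.577).

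Histone genes, which can share probe sets between close copies, rose in 7 of 19 cases and fell in 1. The H3 gene H3c4 was at 1.22 ± 0.165 and H2ax, the histone of the DNA damage response, at 0.82 ± 0.0567, whereas H2bc21 fell by 1.11. Of 18 cholesterol synthesis genes 5 rose and 1 fell, with the isomerase gene Idi1 at 1.06 ± 0.104 and Insig1, a sterol sensor partner, at 0.98 ± 0.0755. In the list of 19 clock genes 3 rose (15.8%) and 4 fell (21.1%), against 6.44% and 14.7% of all genes. Per2 was at 0.63 ± 0.0648 and Per1 at 0.56 ± 0.11.

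**Figure D2:**
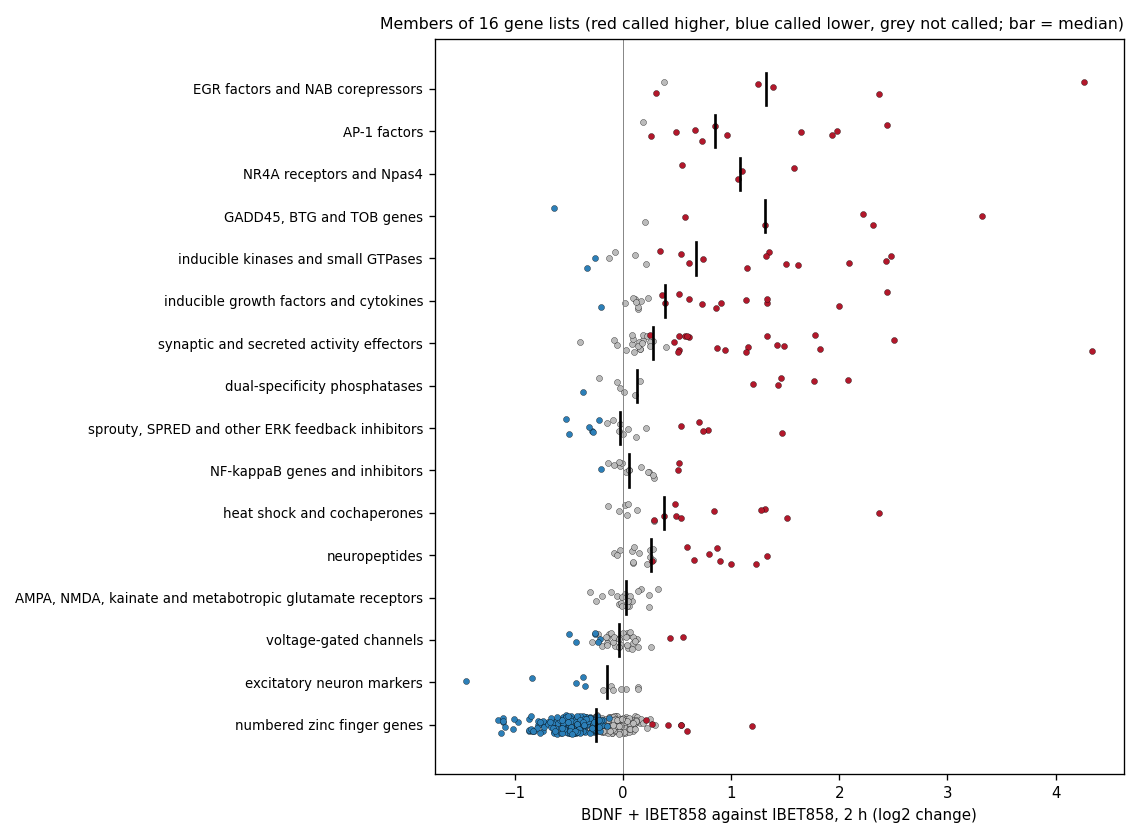
Log2 change with BDNF under IBET858 at 2 h of each measured member of 16 gene lists, 1 dot per gene, with red for called higher, blue for called lower, grey for not called and a bar at the list median. The EGR, AP-1 and NR4A lists lie to the right, glutamate receptor genes around 0 and the numbered zinc finger genes to the left, at a median of -0.25.

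Falls were shallow and led by regulators of transcription. The lowest change was that of Tbr1, a T-box factor of deep-layer excitatory neurons, which was at 0.46, 0.29 and 0.00 under IBET858 and at -1.29, -1.21 and -1.12 with both. It fell by 1.45 (standard error 0.138), a level 2.74-fold lower. Ttc30b, a gene of intraflagellar transport, fell by 1.44, the zinc finger gene Zkscan4 by 1.28, the imprinted ubiquitin ligase gene Mkrn3 by 1.27 and Tgds by 1.18. Of the 15 lowest, 6 were numbered zinc finger genes: Zfp60, Zfp141, Zfp647, Zfp58, Zfp867 and Zfp87, between -1.15 and -1.09. Fam181a (-1.13), the mitochondrial transcription elongation factor Tefm (-1.11), H2bc21 (-1.11) and the galactosyltransferase gene B4galt4 (-1.10) completed them.

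The numbered zinc finger genes, most of which encode DNA-binding proteins with many zinc fingers, were the list with the most falls. Of 305 members, 159 were lower, or 52.1% against 14.7% of all genes, and 7 were higher. Zfp711 was the exception in size, with a rise of 1.19 ± 0.144. With BDNF alone, 172 were lower (56.4%, against 18.1% of all genes) and 16 higher (5.25%, against 9.79%). The interaction described below was called higher in 31 (10.2%, against 3.11% of all genes) and lower in 24 (7.87%, against 5.29%).

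Genes of neuronal identity and synaptic machinery were called in differing shares, against 6.44% higher and 14.7% lower over all genes. Of 20 glutamate receptor genes, 0 were called in either direction, with changes from -0.30 to 0.32. Among 41 voltage-gated channel genes, 2 rose and 6 fell. Of 29 presynaptic genes 1 rose and 0 fell, and of 29 synaptic adhesion genes 0 rose and 6 fell (20.7%), with Slitrk1 at -0.57 ± 0.16 and Lrrtm1 at -0.55 ± 0.103. Excitatory neuron markers had 5 of 12 members lower (41.7%), including the differentiation factors Neurod6 (-0.84 ± 0.137) and Neurod1 (-0.43 ± 0.112) beside Tbr1. The other 2, Bcl11b (-0.37) and Emx1 (-0.35), lost their call when single arrays were left out, with adjusted p up to 0.101 and 0.0731. Pan-neuronal markers had 3 of 13 higher (23.1%), which were the neurofilament genes Nefm and Nefl (1.87 ± 0.112) and Elavl3 at 0.23 ± 0.05. Ribosomal proteins (0 of 46 higher and 2 lower) and respiratory chain subunits (2 and 2 of 80) had medians of -0.04 and -0.01.

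Between 0 and 3 markers of each other cell type were called. Of 9 neural progenitor markers, the intermediate filament gene Vim rose by 0.52 ± 0.075, while the stem cell factor Sox2 fell by 0.43 and the Notch target Hes5 by 0.36. The call of Hes5 was lost without replicate 1 of the double-treated group (-0.27, adjusted p = 0.0943), replicate 2 of the IBET858 group (-0.32, adjusted p = 0.0649) or shared probe sets (-0.17, adjusted p = 0.328). Of 11 astrocyte markers 1 rose, the transcription factor gene Sox9 (1.80 ± 0.141), with 1 of its 3 probe sets at 0.00 and the others at 2.66 and 2.75. Oligodendrocyte markers had 0 of 10 called, between -0.11 and 0.19. Microglia markers had 1 of 11 higher, Itgam at 0.61 ± 0.0833, with all 11 between 0.07 and 0.61. Vascular and fibroblast markers had 2 of 12 higher, Pecam1 and Dcn. The call of Dcn, at 0.25 ± 0.0889, was lost when any array of the contrast but replicate 1 of the double-treated group was left out, with 0.18 (adjusted p = 0.24) without replicate 2. The other members of that list lay between 0.00 and 0.25, with the endothelial junction gene Cldn5 at 0.19 (adjusted p = 0.236), Cdh5 at 0.08 and Flt1 at 0.12, and the part of vascular cells in the Pecam1 rise was not tested.

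The same contrast without the inhibitor, BDNF against DMSO, uses none of these 6 arrays and gives the response of uninhibited cultures. BDNF alone raised 1781 genes (9.79%) and lowered 3287 (18.1%), and with array weights the first count was 3185. Shared in direction were 533 higher genes, which is 45.5% of those higher under IBET858 and 29.9% of those higher with BDNF alone. Among lower genes 1797 were shared, 67.1% and 54.7% of each list. Across all 18194 genes the log2 changes correlated at r = 0.65, a value over genes that are not independent replicates. Of the 15 largest rises, 12 were also called with BDNF alone, and of the 15 largest falls all 15.

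**Figure D3:**
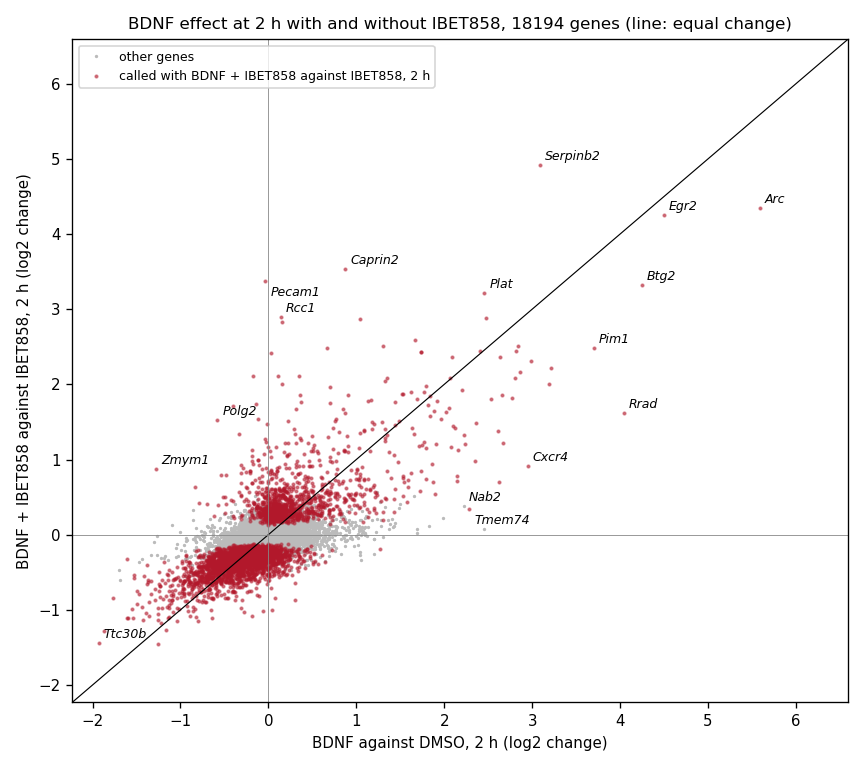
Log2 change with BDNF at 2 h under IBET858 (vertical) against that without it (horizontal) for 18194 genes, with called genes of the inhibited contrast in red. Pecam1, Rcc1 and Caprin2 lie far above the line of equal change, and Rrad, Cxcr4 and Tmem74 far below it.

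The interaction, which tests whether the BDNF effect differed with and without IBET858, was higher in 566 genes (3.11%) and lower in 963 (5.29%). With array weights these counts were 1199 and 1533. It shares the 6 arrays of the inhibited contrast, so genes taken for both calls were partly chosen on the same values. Among the 1172 genes that rose under IBET858, it was higher for 253 and lower for 118. Among the 2678 that fell it was lower for 369 and higher for 128.

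A first group rose much more with both treatments than with BDNF alone. Of the genes that rose over 2-fold under IBET858, 35 also had an interaction over 2-fold. BDNF alone raised 11 of the 35, lowered 3 and left 21 uncalled. Pecam1 had the largest interaction of them, 3.41 ± 0.17: its BDNF arrays were at -0.31, -0.02 and -0.10, no higher than DMSO at 0.01, -0.03 and -0.31. Rcc1 was at -0.91, -0.76 and -0.80 with BDNF alone against 2.80, 2.89 and 2.98 with both, an interaction of 2.76 ± 0.101. For Tmem54 it was 2.68 ± 0.217 and for Caprin2 2.66 ± 0.118. Fam83d, a spindle protein gene, was at 1.01, 0.91 and 0.94 with IBET858 and at 3.04, 3.18 and 2.96 with both (interaction 2.00 ± 0.139). Its BDNF arrays, at -0.38, -0.25 and -0.50, overlapped the DMSO arrays at -0.37, -0.55 and -0.54.

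Some genes changed in opposite directions with and without the inhibitor. A total of 120 genes were called in both contrasts with unlike sign, 36 higher and 84 lower under IBET858. The interaction was called in all 120. It is the difference between these same effects, so unlike signs made that call nearly certain and it adds no separate support. Polg2, the accessory subunit of mitochondrial DNA polymerase, went from 0.97, 1.02 and 0.97 to 2.49, 2.54 and 2.52 under IBET858 (1.53 ± 0.0886) but fell by 0.58 with BDNF alone. The protease gene Adam17, which sheds TNF and growth factors from the cell surface, rose by 1.71 ± 0.0893 with the inhibitor and fell by 0.40 without it. Zmym1 showed 0.88 ± 0.0861 and -1.28 ± 0.0861. Smaller shifts of this kind were seen in Tmem168 (0.79 and -0.54), Mettl18 (0.63 and -0.84), the cyclin kinase subunit Cks2 (0.50 and -0.52) and Rassf5 (0.50 and -0.49).

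A second group rose less when IBET858 was there than with BDNF alone. Rrad, a GTPase that restrains calcium channels, was at 3.20, 2.87 and 3.19 with BDNF alone and at 0.95, 0.52 and 0.71 with both. Its rise was 4.04 ± 0.106 without and 1.62 ± 0.106 with the inhibitor, and the interaction was -2.42 ± 0.15 (adjusted p = 6.37e-10). Cxcr4, the receptor of the chemokine CXCL12, had an interaction of -2.04 ± 0.227, with BDNF arrays at 3.02, 3.06 and 3.07 against 0.40, -0.19 and 0.22. Both genes were thus still raised over IBET858 alone, by a fraction of the change.

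Tmem74, an autophagy gene, had an interaction of -1.95 ± 0.139 and a rise under IBET858 of 0.34 ± 0.0981, a call lost without replicate 1 (0.32, adjusted p = 0.0606) or 2 (0.31, adjusted p = 0.0576) of the IBET858 group. The 2 probe sets of Tmem74 differed, at 0.63 and 0.04 under IBET858 and at 1.00 to 3.57 with BDNF alone. The Ras-like gene Rasl11a had an interaction of -1.92 ± 0.145. Rtn4rl2, a Nogo receptor relative, rose by 1.27 ± 0.0693 with BDNF alone and was at -0.20 ± 0.0693 under IBET858 (interaction -1.46 ± 0.098). That small fall, adjusted p = 0.0488, was lost in each fit that left out an array of the contrast except the one without replicate 1 of the double-treated group. The remaining 3 were Klf10, a target of TGF-beta signalling (-1.45 ± 0.236), Tent5a (-1.42 ± 0.283) and Sertad1 (-1.36 ± 0.0852). The rise of Tent5a under IBET858 (0.72 ± 0.2) was lost without replicate 1 of that group (0.66, adjusted p = 0.0545). Nab2 belongs here by its values, 2.22 ± 0.139 with BDNF alone and an interaction of -1.84 ± 0.196.

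**Figure D4:**
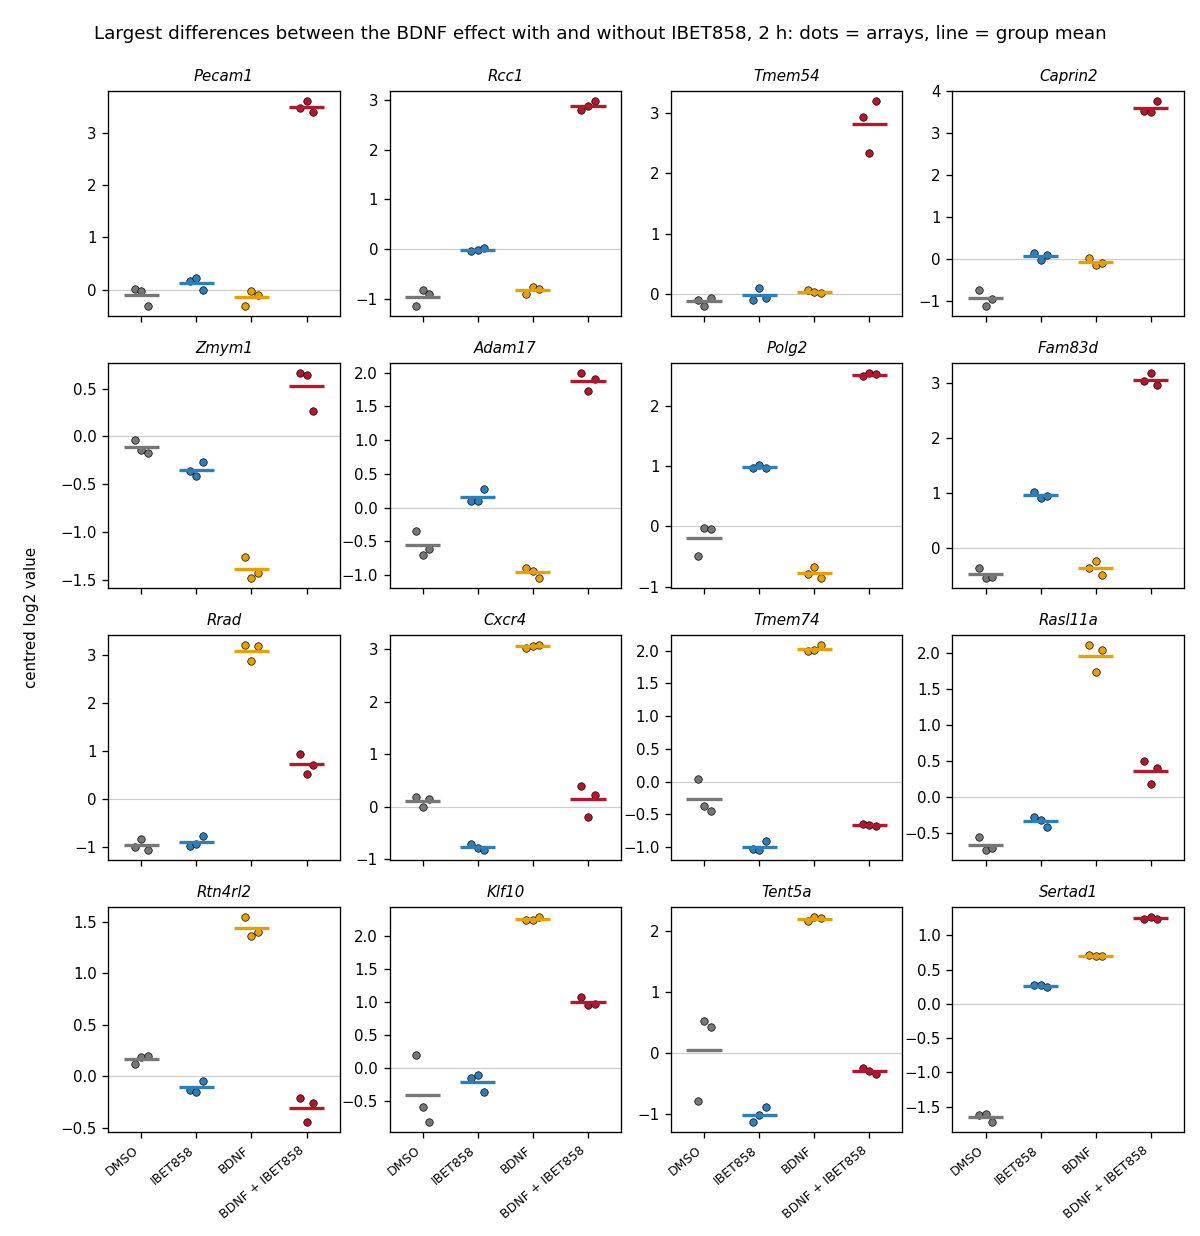
Centred log2 values at 2 h of the 8 genes with the highest and the 8 with the lowest interaction among genes called in both tests, with 1 dot per array and a line at each group mean. In the upper 8 the BDNF + IBET858 arrays are the highest of the 4 groups, and in Rrad, Cxcr4, Tmem74, Rasl11a, Rtn4rl2, Klf10 and Tent5a they lie below the arrays with BDNF alone.

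A smaller BDNF effect did not always mean a lower end point. Arc had an interaction of -1.25 ± 0.192, but its double-treated arrays, at 3.03 to 3.24, lay above those with BDNF alone, at 2.88 to 3.01. The starting points differed, since the IBET858 arrays were at -1.29 to -1.12 and the DMSO arrays at -3.04 to -2.37. Egr1 (interaction -1.22 ± 0.12), Btg2 (-0.93 ± 0.198), Gadd45b (lower, adjusted p = 9.95e-06) and Sertad1 were alike, with double-treated arrays all above the BDNF arrays and IBET858 arrays all above the DMSO arrays. Of the 118 genes that rose under IBET858 with a lower interaction, the double-treated arrays lay entirely below the BDNF arrays in 91 (77.1%, against 21.1% of all genes) and entirely above in 17 (14.4%, against 25.9%). The IBET858 arrays lay entirely above DMSO in 43 of the 118 (36.4%, against 15.5% of all genes). The interaction is made from these same arrays, so the shares describe the 118 and test nothing.

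By list, the interaction was lower most often among the sprouty, SPRED and SOCS feedback inhibitors, in 10 of 19 members (52.6%). It was higher in 2 of them (10.5%), and over all genes lower in 5.29% and higher in 3.11%. BDNF alone had raised 13 of these 19 against 5 under IBET858, and Spry2, an inhibitor of ERK signalling, was at 1.87 ± 0.184 and 0.70 ± 0.184. The list also held Spry1, which moved the other way, at -0.48 ± 0.0788 alone and 0.79 ± 0.0788 under IBET858. Of the inducible kinases and small GTPases 9 of 18 had a lower and 3 a higher interaction, and of the NF-kappaB genes 5 of 16 a lower and 0 a higher one. Rel, for example, rose by 1.54 ± 0.113 with BDNF alone, and its interaction was -1.02 ± 0.16. Among AP-1 factors 3 of 11 had a lower interaction, including Fosl1 (-0.89) and Jun (-0.51), while Fosb (0.03, adjusted p = 0.951), Junb (-0.27, adjusted p = 0.188) and Atf3 (-0.24, adjusted p = 0.595) were not called. Heat shock genes and histones had more higher interactions, in 5 of 17 (29.4%) and 6 of 19 (31.6%), against 3.11% of all genes. In each list 1 was lower (5.88% and 5.26%), close to the 5.29% of all genes.

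The same contrast at 12 h gives the later state of these genes. At that time, on other arrays, BDNF under IBET858 raised 2923 genes (16.1%) and lowered 4227 (23.2%). Of the genes higher at 2 h, 524 were higher at 12 h too, 44.7% of the 2 h list and 17.9% of the 12 h list, and 107 were lower. Of those lower at 2 h, 1075 stayed lower (40.1% and 25.4%) and 452 were higher. Of the 15 largest rises 12 were called higher at 12 h, and of the 15 largest falls 11 were called lower. The difference between the times was called higher in 3022 genes (16.6%) and lower in 2853 (15.7%), where higher means a BDNF effect larger or less negative at 12 h.

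The 6 genes chosen for the largest gains with time included secreted and matrix genes. Tnc, the matrix glycoprotein tenascin C, rose by 1.62 ± 0.192 at 2 h and by 5.78 ± 0.192 at 12 h. At 2 h its 2 probe sets differed, at 0.48 and 2.77. C1ql3, a secreted synaptic organiser, went from 0.73 ± 0.12 to 3.96 ± 0.12, and Srxn1, which repairs oxidised peroxiredoxins, from 1.54 ± 0.067 to 3.98 ± 0.067. Serpinb2 climbed further, to 7.56 ± 0.174, and Rasl11a, at 0.70 at 2 h, rose by 3.15 ± 0.102. Rrad, at 1.62 at 2 h, rose by 3.78 ± 0.106. Cgref1 gained 2.89 ± 0.0813 between the times, although its call at 2 h, 0.17 ± 0.0575, was lost without replicate 1 or 3 of the double-treated group or replicate 2 or 3 of the IBET858 group.

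Several genes that rose far more with both treatments at 2 h had lost that rise by 12 h. Pecam1 was at -0.03, 0.02 and 0.04 on the double-treated arrays at 12 h and at 0.07, 0.04 and 0.54 on the IBET858 arrays, a difference of -0.21 ± 0.12 (adjusted p = 0.184). Caprin2 was at 0.19 ± 0.0838 by then (adjusted p = 0.0804) and Tmem54 at 0.04 ± 0.153 (adjusted p = 0.864). Rcc1 kept a small rise of 0.50 ± 0.0715. Polg2 fell at 12 h, to -1.05 ± 0.0886 and so did the histone gene H3c4, to -1.17 ± 0.165. Of the 35 genes with a rise and an interaction over 2-fold, 16 were still called higher at 12 h. Among all 1172 genes higher at 2 h it was 524 (44.7%), a like share, and among all genes 16.1%. The 1172 hold many small rises, with a median of 0.39, so they are not matched in size to the 35. For the other genes that rose over 2-fold no such share is given here, and whether loss of the rise was particular to the 35 was not tested. Immediate-early genes parted in the same interval: Egr2 stayed at 4.60 ± 0.13 and Arc at 5.20 ± 0.136, while Junb was at 0.28 ± 0.0835 and Npas4 at -0.02 ± 0.206 (adjusted p = 0.947).

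**Figure D5:**
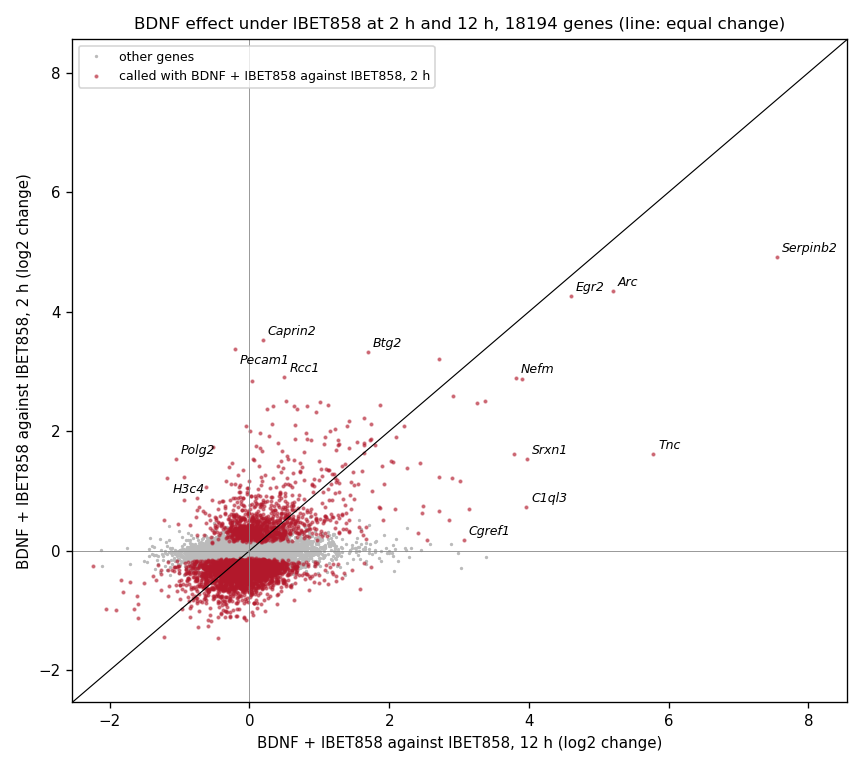
Log2 change with BDNF under IBET858 at 2 h (vertical) against that at 12 h (horizontal) for 18194 genes, with genes called at 2 h in red and a line of equal change. Pecam1 and Caprin2 lie high on the 2 h axis and near 0 at 12 h, and Tnc, C1ql3 and Srxn1 lie far to the right.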

How the data were processed

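RNA on Affymetrix arrays was analysed from the authors' deposited table of 45101 probe sets. Its values are log2 intensities made with RMA, per the submitters' processing notes, and centred to a median of 0 over the 24 arrays for each probe set. RMA gives all arrays 1 distribution, which hides changes in total RNA, and the number of arrays limits precision. The table does not state the log base; RMA works in log2. Genes were named from the platform annotation (34958 probe sets with 1 symbol, 932 with several, 9211 not listed), and a gene's value was the mean of its probe sets, giving 18194 genes.

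One limma 3.58.1 model (R 4.3.3) held 8 group means with 16 residual degrees of freedom. Tests were two-sided, with Benjamini-Hochberg adjustment over all genes. On simulated arrays of the inhibited contrast, 49 of 50 genes with a log2 change of 1 were called, and 6 of 17994 unchanged ones. The simulated noise was normal, independent and alike in all arrays, and far fewer genes changed than were called in the data. These rates therefore check the code and need not hold for the real arrays.

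The members, lists and naming rule were chosen with earlier results of these data known. Named genes were the 15 highest and 15 lowest called changes with arrays that did not overlap, the 8 highest and 8 lowest interactions and the 6 highest and 6 lowest differences between times among genes also called in the contrast, up to 6 genes called in opposite directions, the members of each list with the largest changes, and 14 fixed genes, not all of which are reported here; predicted genes were left out. Neighbouring genes and Rrad at 12 h were chosen after their values were seen. Alternatives were other probe set summaries, normalisation, fits and left-out arrays.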

Additional observations from a re-analysis of the deposited data

Results flagged for a closer look

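The effect of BDNF differed with and without IBET858, by the interaction test, in 16 genes, the 8 highest and 8 lowest among named genes also called in the inhibited contrast. Genes outside that choice, such as Nab2 (-1.84), which was not called there, and the predicted gene Gm49249 (2.39), can lie beyond them. It was larger with the inhibitor for Pecam1 (3.41), Rcc1 (2.76), Tmem54 (2.68), Caprin2 (2.66), Zmym1 (2.15), Adam17 (2.12), Polg2 (2.11) and Fam83d (2.00). It was smaller for Rrad (-2.42), Cxcr4 (-2.04), Tmem74 (-1.95), Rasl11a (-1.92), Rtn4rl2 (-1.46), Klf10 (-1.45), Tent5a (-1.42) and Sertad1 (-1.36). Each kept its call without replicate 1 of DMSO at 2 h, the array that stood apart, with Klf10 at -1.76 there.

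The effect of BDNF under IBET858 also differed between 2 h and 12 h. It was higher at 12 h for Tnc (4.15), C1ql3 (3.23), Cgref1 (2.89), Serpinb2 (2.63), Rasl11a (2.45) and Srxn1 (2.44). It was lower at 12 h for Pecam1 (-3.58), Caprin2 (-3.34), Tmem54 (-2.79), Polg2 (-2.58), Rcc1 (-2.40) and the histone gene H3c4 (-2.39). All values are log2 differences of 3 arrays per group.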

How the results depend on the processing

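The calls of BDNF under IBET858 at 2 h kept their direction under each alternative summary of arrays and fit, with 75.2% to 100% of the 3850 called again; the exceptions in sign were 7 genes each with the median probe set and without shared probe sets. With 1 array left out, 844 to 1104 genes were higher and 2124 to 2347 lower. For BDNF alone these ranges were 1433 to 1860 and 2712 to 3278, for the interaction 442 to 642 and 771 to 1062, at 12 h 2551 to 2907 and 3630 to 4399, and for the difference between times 2671 to 3179 and 2266 to 3268. Array weights raised the calls of BDNF alone to 3185 higher, and those of the interaction to 1199 higher and 1533 lower; the cause was not tested. The interaction of Fos, -0.02, turned to 0.03 with array weights (adjusted p = 0.826) and to 0.04 without DMSO at 2 h replicate 1, alone or with IBET858 at 12 h replicate 3 (adjusted p = 0.908 and 0.884). It was -0.05 without another DMSO array, so that leaving out 1 array gave -0.05 to 0.04. Across the single genes and list medians, 5480 of the recomputed values kept direction and call, 127 lost the call, 101 gained it, 36 list medians moved by more than the spread between arrays and the 3 of Fos turned sign. The median over probe sets ended the call of Hmgcs1 (0.06, from 0.33) and Cacna2d1 (0.20, from 0.56). Same-numbered arrays of the inhibited contrast correlated at 0.049 to 0.154 and differently numbered ones at -0.132 to 0.024. Each array thus correlated best with its own number, a hint from the data and not from the design; not every pair was over 0.1, so the numbers were not taken as pairs, and a fit with the replicate block called 1119 higher and 2532 lower. Centred values carry no level, so the brightest probe set per gene and a filter on dim genes were not run.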

Other observations

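Several genes that rose over 2-fold with both treatments, and over 2-fold more than with BDNF alone, sit beside another gene called higher. In RefSeq gene order this held for 12 of 35 such genes (34.3%), for 30 of the 113 other genes that rose over 2-fold (26.5%), and for 2246 of 18143 genes placed (12.4%). Caprin2 neighbours Ipo8, an importin gene, which rose by 1.34 ± 0.0641 under IBET858 and was at -0.33 with BDNF alone, with an interaction of 1.68. Ipo8 is itself one of the 35, so this pair counts for both of its genes. Ddx23, an RNA helicase gene that rose by 1.12, neighbours Rnd1, at 0.39 under IBET858 and -0.58 with BDNF alone (interaction 0.97). Epor, the erythropoietin receptor gene, rose by 2.00 and its neighbour Rgl3 by 0.91 ± 0.114. Hao1 rose by 1.23 beside Bmp2 at 1.33 ± 0.309, whose interaction was not called (1.03, adjusted p = 0.178). Other neighbours rose about as much with BDNF alone: Kdm6b beside Tmem88 was at 1.72 under IBET858 and 1.81 alone, and Ifrd1 beside Scin at 1.90 and 1.62. These pairs were named after their values were seen, and the shares were not tested. In the promoter windows, the shorter CRE motif TGACG was in 20.7% of the 29 listed for the 35 genes and in 43.8% of the 80 for the others that rose over 2-fold. Over all 14453 windows its share was 27.2%, to which the 35 genes lay nearer than the others. This was 1 of several motifs searched, and the shares were not tested.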
